A study of Mus musculus with 63 samples.

Results

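Single iR9 cells, lymphoid progenitors regenerated in mice from pluripotent stem cells, were divided into Il23r-positive and Il23r-negative cells. The division was chosen by the measured level of 1 gene: a cell with Il23r at 10 TPM or more was positive and any other was negative. TPM is transcript abundance scaled for transcript length and to the same total in each library. The series held 63 libraries, 34 of them of iR9 cells and 29 of wild-type cells (WT). In 15 cases a pair of iR9 libraries carried the same cell number with the suffixes 2 and 3, and each pair was averaged as 1 cell. With cells 14-1, 17-1 and 28-3, which had 1 library each, this gave 18 cells, of which 6 were Il23r-positive and 12 Il23r-negative.

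Both groups came through the same sort gate and carry the same strain label, C57BL/6. The cells were GFP+, CD45.2+, Lin-, CD127+, CD135-, α4β7+, Sca1mid/- and CD25-, the phenotype of common helper innate lymphoid progenitors (CHILPs). They were taken from the bone marrow of Rag2-/-Il2rg-/- mice, which lack lymphocytes of their own, 4 weeks after transplantation. iR9 names, as background, an inducible Runx1 and Hoxa9 stem cell line; the labels themselves do not spell the name out. WT cells had the same surface phenotype without the GFP gate and carry the same strain label. No label names a mouse, clone or culture for any cell, so each group is 1 sample of many cells, the spread given below is over cells, and no test between the groups was made. A further iR9 cell, 12-1, was left out: 9 of 10 mast cell and basophil genes were at 10 TPM or more in it, and at most 1 of the 10 was in any of the 18 cells.

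Il23r encodes the chain of the interleukin-23 receptor that, together with the chain encoded by Il12rb1, signals through the kinases JAK2 and TYK2 to STAT3. In mature group 3 innate lymphoid cells (ILC3) and lymphoid tissue inducer (LTi) cells, IL-23 drives release of IL-22 and IL-17. Rora encodes RORα, a nuclear receptor of innate lymphoid cells that binds DNA elements with the half-site AGGTCA. Lymphotoxin, built from the products of Lta and Ltb, is the cytokine through which LTi cells act on stromal cells.

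The sequences just upstream of Il23r and Ltb are shown because both genes were given as markers of the division, and they behaved differently in these cells. They come from RefSeq on GRCm38.p6, stop before the first annotated exon, and are written 5′ to 3′ on the gene's strand. Capitals mark AGGTCA or its reverse complement TGACCT, the only motif searched, on both strands. The Il23r stretch is chr6:67491856-67492105 on the minus strand and the Ltb stretch is chr17:35194257-35194438 on the plus strand.
Il23r: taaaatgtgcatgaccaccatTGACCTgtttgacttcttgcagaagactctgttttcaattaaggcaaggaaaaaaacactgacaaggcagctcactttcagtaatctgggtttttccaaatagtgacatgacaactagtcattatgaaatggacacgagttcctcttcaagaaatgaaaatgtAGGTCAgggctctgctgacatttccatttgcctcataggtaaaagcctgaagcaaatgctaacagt
Ltb: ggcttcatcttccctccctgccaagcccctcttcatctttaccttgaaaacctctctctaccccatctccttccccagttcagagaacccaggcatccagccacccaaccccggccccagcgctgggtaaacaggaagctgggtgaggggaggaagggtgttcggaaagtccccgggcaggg
The Il23r stretch of 250 bases held 1 match on each strand, 229 and 66 bases before the RefSeq start. The Ltb stretch of 182 bases held 0, as did stretches of 228 bases before Il22 and 250 bases before Rora and Lta. Of 32851 RefSeq promoter windows of 250 bases, 14.02% held the motif and 1.36% held 2 or more matches. A match describes letters and does not mark a binding site.

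Il23r (GRCm38 chromosome 6, 67422932 to 67491855) was at 682.7 TPM in cell 14-1, 658.4 in 17-1, 577.5 in 10, 332.9 in 6, 244.0 in 15 and 10.9 in 25. In the 12 negative cells it was at most 1.92 TPM, in cell 8, and under 1 TPM in the other 11. The values just inside and just outside the threshold were therefore those of cells 25 and 8. Cell 25 is the one cell whose paired libraries fell on both sides of 10, at 12.5 and 9.36 TPM, so 5 of the 6 positive cells were far above the threshold and 1 stood at it. As the gene that chose the groups, Il23r is described here and was not compared. None of the 29 WT cells reached 10 TPM (0%, exact binomial 95% interval 0 to 11.9%, counting error only), and the highest of them was at 3.96 TPM.

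The positive cells included both retained cells whose titles end in 1, 14-1 and 17-1. Cell 14-1 stood apart, with 3238 genes at 1 TPM or more, against 1595 to 2130 in the other 5 positive cells. The positive cells had a median of 2024.5 such genes and the negative cells one of 1685, with a range of 1514 to 2174. At 10 TPM or more, the level of most cell counts below, the medians were 1601.5 in positive and 1204 in negative cells. The ranges there were 1158 to 2584 and 852 to 1643, and the cell counts are to be read beside this gap. Without cells 14-1 and 17-1 the positive medians were 1777 at 1 TPM and 1319 at 10 TPM. The main comparisons below therefore also give the value without these cells. TPM keeps no read depth, so the precision of a low value is unknown and a gene at 0 is only listed at 0.

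Il22, which encodes the cytokine that IL-23 elicits in ILC3, did not follow Il23r. Il22 (chromosome 10, 118204942 to 118210047) was at 9151 TPM in cell 27, 3446 in 19 and 254.3 in 30, all of them Il23r-negative. In the 6 positive cells its highest value was 3.55 TPM, in cell 25, and 4 of the 6 were listed at 0. The other 9 negative cells were at 7.31 TPM or less. No cell held both Il23r and Il22 at 10 TPM or more. The shares were 0 of 6 positive cells (interval 0 to 45.9%) and 3 of 12 negative cells (25%, 5.49 to 57.2%). These intervals overlap, but they cover counting error only, over cells of 1 sample in each group, and are not a test. The difference in mean log2(TPM + 1), positive minus negative, was -3.37, or -3.13 without cells 14-1 and 17-1. None of the 29 WT cells reached 10 TPM of Il22.

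Csf2, encoding the cytokine GM-CSF, was likewise at high level only among negative cells of the 18: 3864 TPM in cell 24 and 3313 in cell 30, and at most 2.51 TPM in positive cells. Its difference was -1.83, or -1.55 without cells 14-1 and 17-1, -0.97 without cell 24 and -0.99 without cell 30. The cytokine gene Il17a and the receptor gene Ncr1 were listed at 0 in all 18 cells, and Il17f and Cd4, the latter a surface marker of part of the LTi cells, were under 10 TPM in all of them.

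**Figure D1:**
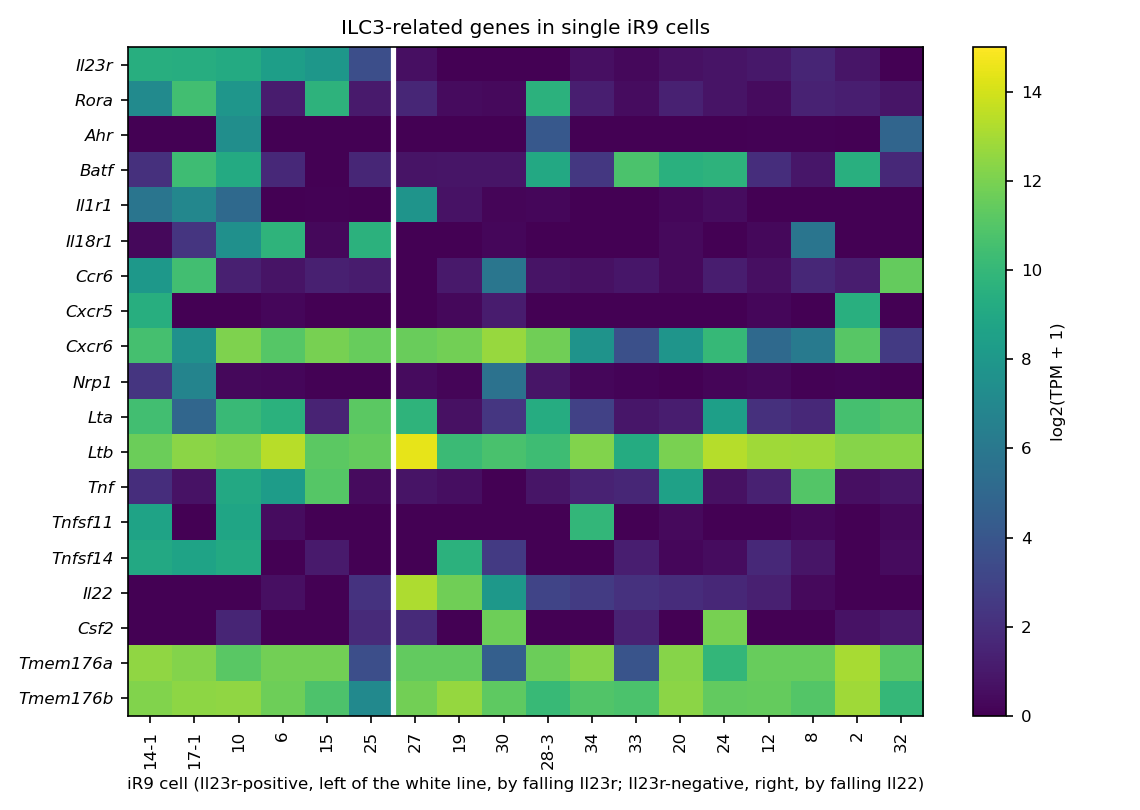
ILC3-related genes (rows) in the 18 iR9 cells (columns); colour gives log2(TPM + 1) on a scale from 0 to 15, and the white line separates the 6 Il23r-positive cells on the left from the 12 negative cells on the right. Il22 is at 10 TPM or more in 0 cells on the left and 3 on the right, Lta in 5 on each side, and Ltb in all 18.

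Ltb did not separate the groups. Ltb (chromosome 17, 35194439 to 35196320) ranged from 2415 to 10526 TPM in the positive and from 599.6 to 22157 TPM in the negative cells, and the positive range lay within the negative one. Its mean log2(TPM + 1) was 12.05 ± 0.78 (SD over 6 cells) and 11.89 ± 1.49 (SD over 12 cells), a difference of 0.16 with the full set and without cells 14-1 and 17-1, and of -0.11 without cell 6. Of the 3 genes given as markers of the division, Il23r itself thus separated the cells by construction, Ltb was high in all of them and Il22 was high in none of the positive ones. The groups are accordingly named by Il23r alone and not as a cell type.

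Lta, the partner chain of lymphotoxin (chromosome 17, 35203165 to 35205351), was at 10 TPM or more in 5 of 6 positive and 5 of 12 negative cells. It was highest in cell 25 at 2391 TPM, lowest in cell 15 at 1.87 TPM, and between 0.626 and 1883 TPM in the negative cells. The difference was 2.91, and 3.05 without cells 14-1 and 17-1. Its SD of 3.87 over 6 and 4.25 over 12 cells exceeded that difference. Tnf, a related cytokine gene, was at 10 TPM or more in 3 positive cells (6, 10 and 15, from 314.8 to 2088 TPM) and in 2 negative cells (8 and 20, 2059 and 380.6 TPM). Its difference of 2.89 became 4.85 without cells 14-1 and 17-1. Tnfsf14, encoding LIGHT, reached 10 TPM in positive cells 10, 14-1 and 17-1 and in negative cell 19, with a difference of 3.22 that was 1.11 without the suffix 1 cells. Tnfsf11, encoding RANKL, an LTi cytokine, was at 457.3 and 421.9 TPM in positive cells 10 and 14-1 and at 975.2 TPM in negative cell 34. Its difference was 2.10, 0.93 without cell 10 and 0.96 without cell 14-1. Tnf differed by 1.74 without cell 15, so leaving out 1 cell could bring the difference of either gene under 2.

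**Figure D2:**
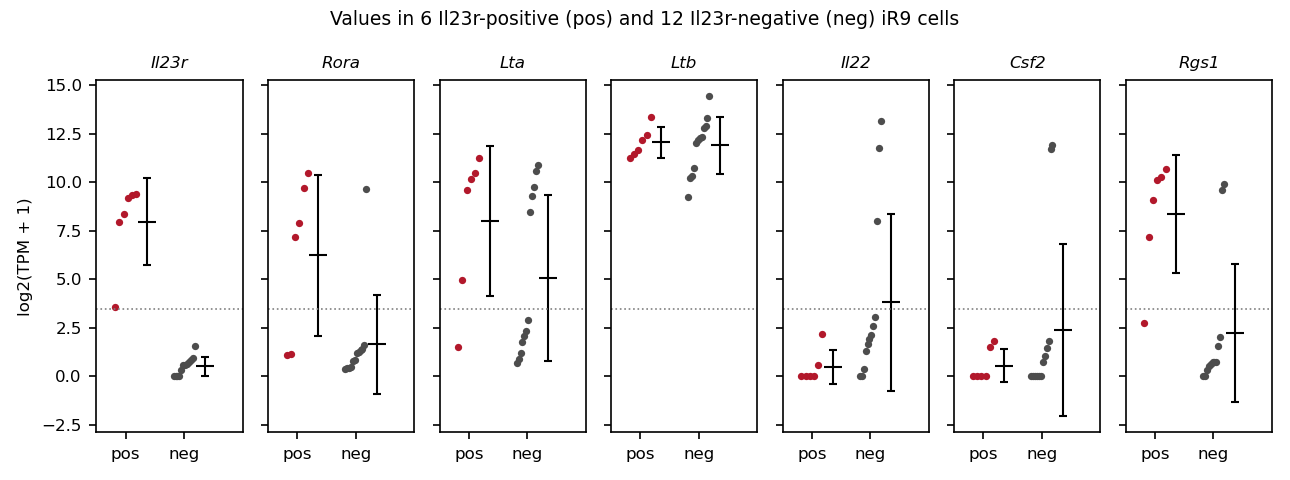
Log2(TPM + 1) of 7 genes in each Il23r-positive (red, 6 cells) and Il23r-negative (grey, 12 cells) iR9 cell; black bars give the mean and SD over cells and the dotted line marks 10 TPM. Il23r separates the groups because it defined them, whereas the groups overlap for the other 6 genes, and for Ltb the means are 12.05 and 11.89.

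The ILC3 and LTi genes as a group did not stand clear of the background. Of 3674 genes tested, those at 1 TPM or more in at least 3 of the 18 cells other than Il23r, 713 had a mean log2(TPM + 1) higher by at least 2 in positive cells (19.4%) and 233 a mean lower by at least 2 (6.34%). The groups held 6 and 12 cells, so the same few high cells move the positive mean further than the negative one. A call upward is thus easier to reach, and the 2 shares are not to be set against each other. The median difference over all tested genes was 0.44, so a difference is read against that shift. Of the 18 ILC3 and LTi genes, 14 were tested. Among these, 4 were higher by at least 2 (among them Lta, Il1r1 and Tnfsf11), 1 was lower by at least 2 (Il22) and 9 lay between, with a median of 0.57. Without cells 14-1 and 17-1, 10 of the 18 were tested, 2 were higher, 1 was lower and the median was -0.82. The same calls over all genes were then 18.1% higher and 12.5% lower of 3094 tested, with a median of 0.18. The counts of every list below are to be read beside these all-gene shares.

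For several members the difference rested on single cells. Il1r1, the receptor for IL-1, was at 121.0, 56.8 and 34.4 TPM in positive cells 17-1, 14-1 and 10 and at 213.2 TPM in negative cell 27, a difference of 2.19 that was 0.49 without the suffix 1 cells and 1.76 without cell 10. Ccr6, a chemokine receptor of LTi cells, was at 1396 and 257.6 TPM in positive cells 17-1 and 14-1 and at 2837 and 59.0 TPM in negative cells 32 and 30. Its difference was 1.68 with and -1.02 without cells 14-1 and 17-1. Cxcr5, a follicle-homing receptor, reached 10 TPM in 1 positive cell (14-1), and Nrp1 and Ahr, the latter a ligand-activated factor of ILC3, in 1 each (17-1 and 10). The differences of these 3, 0.68, 0.94 and 0.47, were -0.89, -0.08 and -0.77 without those cells. Batf, an AP-1 factor, was in 2 of 6 positive and 5 of 12 negative cells, with a difference of -0.68 that was 0.15 without cell 15. Tmem176a and Tmem176b, membrane proteins abundant in ILC3, were at 10 TPM or more in all 18 cells and differed by 0.13 and -0.26. Both were lowest among positive cells in cell 25, at 11.4 and 140.4 TPM. Without that cell the differences of Tmem176a and Tmem176b were 1.51 and 0.54, and without cell 33 that of Tmem176a was -0.46. In cells 25 and 33 Tmem176a reached 10 TPM in 1 library of the pair only.

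Partners of the receptor were sparse in both groups. Of 9 IL-23 receptor signalling genes, 2 were tested and neither differed by 2 in either direction. Il12rb1, the shared receptor chain, was listed at 0 in every positive cell and reached at most 0.461 TPM in negative ones. Jak2 was at most 1.07 TPM, and Tyk2 was at 22.1 TPM in 1 positive cell and otherwise under 1 TPM. Stat3 was at 10 TPM or more in 1 positive cell (14-1, 183.5 TPM) and 2 negative cells (33 and 27, 617.6 and 367.6 TPM), with a difference of 0.17 that was -0.99 without cell 14-1. Stat4 was in 2 positive and 3 negative cells, with a difference of -0.44, or 0.29 without cell 24. The ligand genes Il23a and Il12b were listed at 0 throughout.

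Among transcription factors and receptors of ILC progenitors, Rora and Il18r1 were higher in positive cells by the widest margins. Rora, encoding the retinoid-related receptor RORα used in ILC2 and ILC3 (chromosome 9, 68653786 to 69388246), was at 1429 TPM in cell 17-1, 831.1 in 15, 233.7 in 10 and 145.1 in 14-1, and at 1.20 and 1.13 TPM in cells 6 and 25. In negative cells it was at 808.2 TPM in 28-3 and at most 2.08 TPM in the others. The difference was 4.58, and 3.29 without cells 14-1 and 17-1. Il18r1, a chain of the IL-18 receptor found on ILC precursors (chromosome 1, 40465552 to 40500854), was at 875.2, 805.7 and 186.5 TPM in positive cells 6, 25 and 10, and at 55.7 TPM in 1 negative cell, 8. Its difference of 4.42 was 6.26 without the suffix 1 cells. Rora and Il18r1 marked different positive cells, overlapping at 10 TPM in cell 10 alone. Among the 29 WT cells, none of which reached 10 TPM of Il23r, Rora was at 10 TPM or more in 17 and Il18r1 in 14.

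Gata3, required in ILC progenitors and ILC2, was at 10 TPM or more in 4 of 6 positive and 3 of 12 negative cells, a difference of 2.47 (1.76 without the suffix 1 cells). Tcf7, encoding TCF-1 of early lymphoid commitment, was in 3 and 2 cells, a difference of 2.35 that was 0.84 without them. The difference of Gata3 was 1.75 without cell 6 and that of Tcf7 1.15 without cell 25. Gata3 reached 10 TPM in 24 and Tcf7 in 22 of the 29 WT cells. High levels of Rora, Il18r1, Gata3 and Tcf7 were thus not particular to Il23r-positive cells. Id2, whose product blocks E protein factors during ILC development, was high in all 18 cells, from 3418 to 16949 TPM, and differed by 0.37. Arg1, an enzyme gene of ILC precursors and ILC2, was between 2951 and 3566 TPM in 3 negative cells (12, 24 and 32) and at most 4.42 TPM in positive cells, a difference of -2.94. Of 13 progenitor genes, 8 were tested, 4 were higher by at least 2 and 1 was lower, beside 19.4% and 6.34% of all tested genes. The other 5 were below the filter, and 2 of the 13 were listed at 0 in all 18 cells. Without the suffix 1 cells 7 were tested, 2 were higher and 1 was lower, beside 18.1% and 12.5%. The list median was 1.84, or 0.84 without the suffix 1 cells and 0.79 without cell 25.

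Genes of the other ILC groups gave mixed values. Of 10 ILC2 genes 1 was tested, Icos, a costimulatory receptor, which was at 10 TPM or more in 1 positive and 4 negative cells, a difference of -2.24 that was -1.58 without cell 19, -1.67 without 8, -1.73 without 30 and -1.82 without 2. The ILC2 cytokine genes Il5, Il13 and Il4 were listed at 0. Of 17 ILC1 and NK genes 4 were tested, and 1 was higher by at least 2 and 1 lower. At least 3 of the 17 were at 10 TPM or more in 3 of 6 positive and 0 of 12 negative cells. The margin was narrow, since no positive cell held more than 3 of the 17 and the most in a negative cell was 2. Positive cells also had more genes at 10 TPM or more, as given above. The list median was 0.95, or -0.38 without the suffix 1 cells and -0.06 without cell 17-1 alone. Il2rb, a receptor chain for IL-2 and IL-15 that was below the filter and is named after its values were seen, reached 10 TPM in 2 positive cells and 0 negative cells. Ccl5, a chemokine of cytotoxic lymphocytes, was at 10520, 4637 and 1424 TPM in 3 negative cells and at most 7.07 TPM in positive cells, a difference of -2.66 that was -1.77 without cell 12 and -1.88 without 33. Fcer1g, a signalling adaptor, was at 10 TPM or more in all 18 cells and differed by 2.04, with 1.52 to 2.41 over the cells left out. Its lowest values were 2362 TPM in positive and 13.5 TPM in negative cells, 4 of which lay below 25 TPM. In negative cell 12, the lowest, Fcer1g reached 10 TPM in 1 library of the pair only. Ifng, Eomes and Prf1 were listed at 0 in all 18 cells.

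The NF-κB subunit genes Nfkb1 and Nfkb2, which encode p105 and p100, were found in different cells. Nfkb2 was at 822.8, 338.8 and 16.1 TPM in positive cells 17-1, 6 and 14-1 and under 1 TPM in all negative cells, a difference of 3.60 (2.03 without the suffix 1 cells). Nfkb1 was at 118.1 to 708.7 TPM in 4 negative cells (12, 24, 27 and 32) and under 1 TPM in all positive cells, a difference of -2.97. Nfkb2 passed the filter of 3 cells through positive cells alone and Nfkb1 through negative cells alone. The direction of each followed from how it passed and is no support for a split between the groups. Of 7 tested NF-κB genes, Nfkb1 and Nfkb2 were the only 2 that differed by 2. Of 17 tested AP-1 and immediate early genes, 1 did: Rgs1, a regulator of G protein signalling in tissue lymphocytes (chromosome 1, 144242296 to 144249242). Rgs1 was at 10 TPM or more in 5 of 6 positive cells, from 146.4 to 1648 TPM, and at 5.63 TPM in cell 14-1. It was at 975.2 and 763.6 TPM in negative cells 24 and 20 and at most 3.07 TPM in the other 10. The difference was 6.11, and 7.81 without the suffix 1 cells. Without those cells, 3 of 17 tested AP-1 and immediate early genes were higher by at least 2: Rgs1, Cd69 and Fos. The difference of Cd69 was 0.96 with and 2.55 without those cells, and that of Fos -0.74 and 2.04.

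Of 4 tested migration receptor genes, Cxcr6 and S1pr4 were higher by at least 2 in positive cells and none of the 4 was lower by 2. Cxcr6, a chemokine receptor of ILC progenitors, was at 10 TPM or more in 6 of 6 and 11 of 12 cells, 1 of which (33) held it in 1 library of its pair only. Its median was 2477 TPM in positive and 647.8 TPM in negative cells, and it differed by 2.29, or 3.15 without the suffix 1 cells and 1.75 without cell 32. The lowest positive value, 190.2 TPM in cell 17-1, lay within the negative range of 4.78 to 6471 TPM. S1pr4, a sphingosine phosphate receptor, was in 4 of 6 and 3 of 12 cells and differed by 3.47 (2.19 without them).

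**Figure D3:**
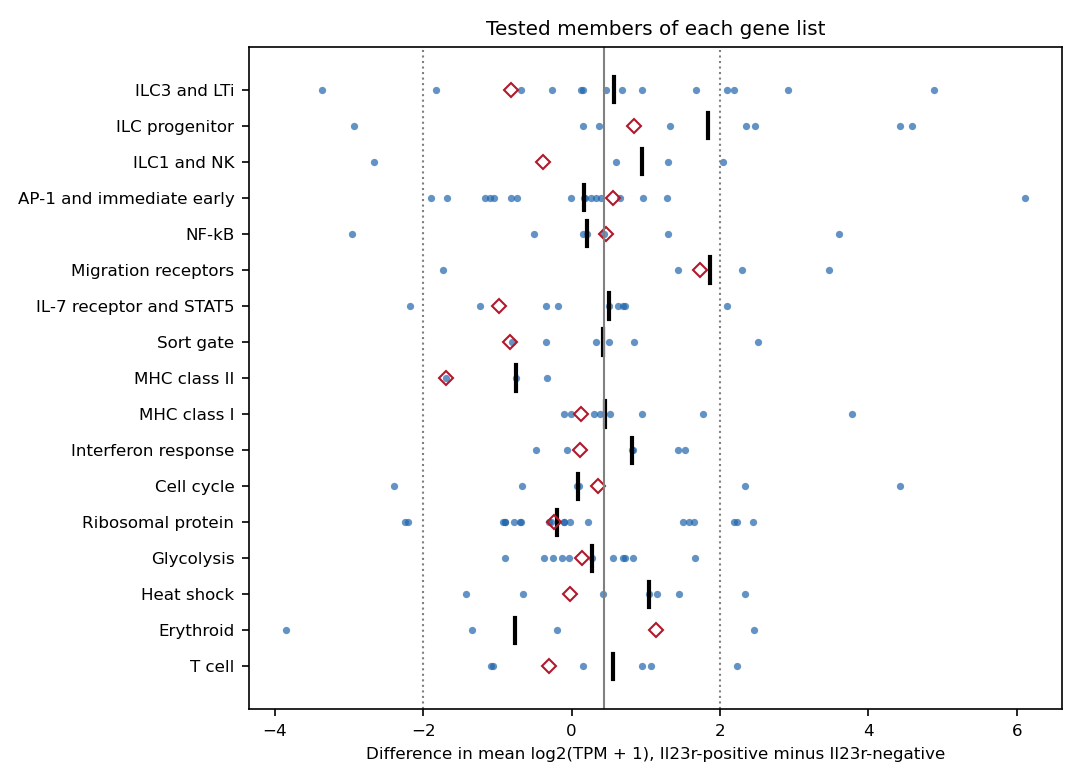
Difference in mean log2(TPM + 1), Il23r-positive minus Il23r-negative, for each tested member (blue points) of the gene lists with at least 3 tested members. Black bars are list medians over 18 cells, red diamonds are medians without cells 14-1 and 17-1 over the members tested there, the grey line is the all-gene median of 0.44 and the dotted lines mark -2 and 2; the ILC3 and LTi median is 0.57 with those cells and -0.82 without.

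Genes of general cell functions gave mixed values. Pcna, a DNA replication clamp, was at 294.9 to 1444 TPM in 4 positive cells and at 281.0 and 530.0 TPM in 2 negative cells, a difference of 4.42, while Mki67 and Rrm2 were listed at 0 in all 18 cells and Tubb5, a tubulin gene, differed by -2.39 (-1.91 without cell 8). Of 20 ribosomal protein genes, all tested, 3 were higher by at least 2 and 2 lower, with a median of -0.19. Tap1, the peptide transporter of MHC class I, was at 114.7 to 363.8 TPM in 3 positive cells (14-1, 15 and 17-1) and at most 1.08 TPM in negative cells, a difference of 3.78 (1.99 without the suffix 1 cells), but the 8 tested MHC class I genes had a median of 0.45. Lmo4, a LIM-domain factor, was in 6 of 6 and 8 of 12 cells, 1 of which (34) held it in 1 library of its pair only, and differed by 3.01. Of 9 tested genes of IL-7 receptor and STAT5 signalling, Jak3 was higher in positive cells with a difference of 2.09 and the feedback inhibitor Socs2 lower with one of -2.18. These were 1.03 without cell 10 and -1.61 without cell 30. The list median was 0.50, and -0.98 without the suffix 1 cells.

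Runx1 and Hoxa9, the factors behind the iR9 name and chosen here after their values were seen, were not higher in positive cells. Runx1 was at 10 TPM or more in 3 of 6 positive and 7 of 12 negative cells, and Hoxa9 in 1 and 5, with differences of -1.37 and -2.50. Without the suffix 1 cells these were -0.63 and -1.53. Without cell 6 alone they were -2.38 and -3.85, and Runx1 differed by -0.70 without cell 14-1 and Hoxa9 by -1.94 without cell 2. Both were high together in positive cell 6 and in negative cells 2, 20, 28-3, 32 and 33. Transcripts of the introduced copies and of the cell's own genes were not separated in these values.

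No tested gene was higher in every positive cell than in every negative cell, and none was lower in every positive cell (0% each). The 15 genes with the largest differences upward, among those meeting the detection and sign rules, ran from 5.31 to 6.33. Golga7, a palmitoyltransferase partner, had the largest difference: it was between 156.8 and 651.3 TPM in 5 positive cells, listed at 0 in cell 25 and at most 1.74 TPM in the 12 negative cells. The difference was 6.33, and 5.58 without the suffix 1 cells. Glo1, encoding glyoxalase I, was at 288.7 to 665.1 TPM in positive cells 6, 10, 14-1 and 25, under 1 TPM in cells 15 and 17-1, and at most 0.514 TPM in negative cells (5.76). Glo1, and Plekhb2 named below, were under 1 TPM in every negative cell. They passed the filter through positive cells alone, so their direction followed from how they passed. Pbxip1 was at 57.3 to 289.6 TPM in 5 positive cells, listed at 0 in cell 6 and at most 1.40 TPM in negative cells (5.45). The splicing proteins' genes Lsm5 and Snrpg were in all 6 positive cells, and in 3 and 4 negative cells, with differences of 5.88 and 5.59, and Snrnp27, from the same process, was in 5 and 1 (6.05). Rgcc, a cell cycle regulator, was at 919.8 to 2866 TPM in all 6 positive cells and at 10 TPM or more in 5 negative cells (5.31). Hsd11b1, an enzyme that activates glucocorticoids, was in 5 positive and 2 negative cells (5.84), and Atp1b3, a sodium pump subunit, in 5 and 2 (5.92). The remaining 6 were Sugt1, Plekhb2, Wwp2, Snapc5, Aup1 and Rgs1.

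The 15 largest differences downward ran from -5.84 to -3.85. Gmfg, an actin regulator of blood cells, was at 283.9 to 2628 TPM in 10 of 12 negative cells and, among positive cells, at 373.2 TPM in cell 6 and at most 2.07 TPM in the others. Its difference was -5.84, or -4.87 without the suffix 1 cells. Tmem55b (current symbol Pip4p1), a lysosomal phosphatase gene, was at 10 TPM or more in 8 negative cells and at most 1.20 TPM in positive cells (-5.46). Timm17a, a mitochondrial import subunit, was in 7 negative cells and at most 2.69 TPM in positive cells (-5.28). Txndc9 was in 11 of 12 negative and 2 of 6 positive cells (-4.72), and Ndufa8, a subunit of respiratory complex I, in 8 and 1 (-4.82). Samsn1, a lymphocyte adaptor, was in 8 and 1 (-4.47). The others were Ube2a, Lsm3, Cisd1, Ccdc53 (current symbol Washc3), Chchd7, Rpl29, Hsd17b10, Mapkapk3 and Beta-s (current symbol Hbb-bs). Ube2a, Lsm3 and Cisd1 were under 10 TPM in all 6 positive cells.

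**Figure D4:**
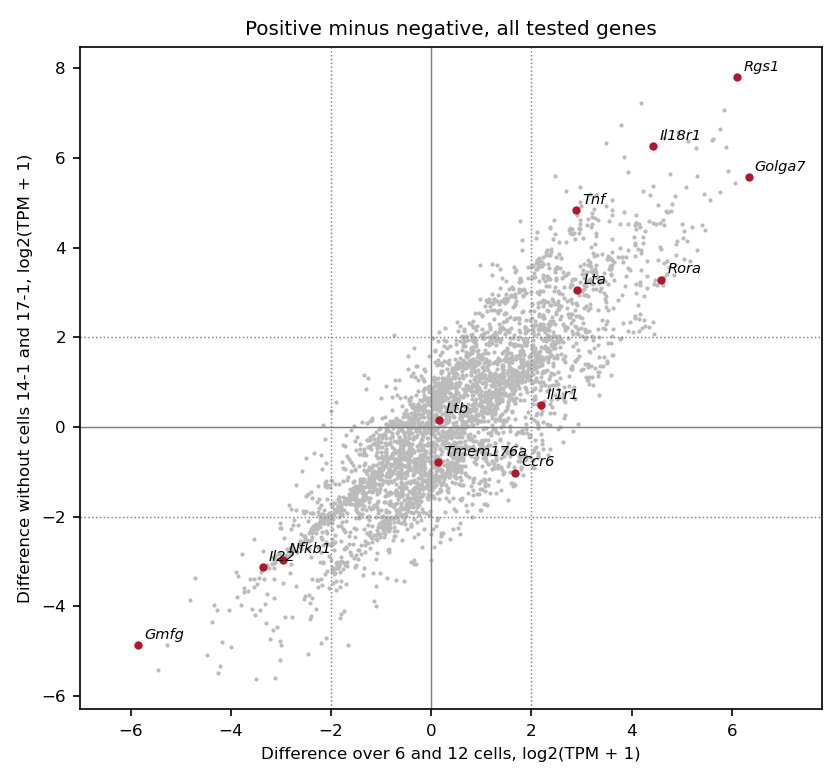
Difference in mean log2(TPM + 1), positive minus negative, over all 18 cells (x axis) and without cells 14-1 and 17-1 (y axis) for each of 3674 tested genes, with dotted lines at -2 and 2. Rgs1 (6.11 and 7.81), Rora (4.58 and 3.29) and Il22 (-3.37 and -3.13) are far from 0 on both axes, whereas Ccr6 goes from 1.68 to -1.02. The axes share all 12 negative and 4 of the 6 positive cells, so they are not independent. Rgs1 is among the genes chosen for keeping their sign without cells 14-1 and 17-1.

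Positive cells did not correlate more closely with each other than with negative cells. The median Pearson r of log2(TPM + 1) across the 3674 genes, which are not independent replicates, was 0.293 over 15 pairs of positive cells, 0.315 over 66 pairs of negative cells and 0.301 over 72 mixed pairs. Without the suffix 1 cells it was 0.309 within positive and 0.313 in mixed pairs. The same cell's paired libraries gave 0.971 to 0.991.

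Markers of other cells and of the sort were read for both groups. Il7r, encoding CD127, was at 10 TPM or more in 5 of 6 and 11 of 12 cells, and Itgb7, the β7 chain, in 4 and 7. Ly6a, encoding Sca1, was in 4 of 6 positive cells, from 687.4 to 1638 TPM, and in 4 of 12 negative cells, and was the one tested sort gene that differed by 2. Its difference was 2.51, or 3.57 without the suffix 1 cells and 1.74 without cell 10 or cell 25. Itga4, the α4 chain, was in 1 and 3, and Flt3, encoding CD135, was listed at 0 in all 18 cells. No cell of the 18 held 3 or more markers of the mast cell, myeloid, dendritic cell or B cell lists at 10 TPM, out of 10, 12, 9 and 8 genes. The summed TPM of the 12 myeloid genes ranged from 0 to 2402 in positive and from 0 to 2841 in negative cells, with Csf1r, Cd14 and Elane listed at 0. Lyz2, a myeloid lysozyme gene, was at 2402 and 280.8 TPM in positive cells 17-1 and 14-1 and under 1 TPM in the other 16 cells. Its difference of 3.08 was -0.15 without the suffix 1 cells. The left-out cell 12-1, also of suffix 1 and under 1 TPM of Il23r, held Lyz2 at 2330 TPM, and 15 of 29 WT cells reached 10 TPM of it. The 10 mast cell genes summed to at most 36.5 TPM in positive and 1.53 TPM in negative cells. The first of these was cell 14-1, where Tpsb2 was at 17.4 TPM and Cpa3 at 9.49 TPM. In the left-out cell 12-1 Tpsb2 was at 106595 TPM. At least 3 T cell genes were at 10 TPM or more in 3 positive and 2 negative cells, and Zap70 was in 4 and 5 and Lat in 4 and 6 cells, while Cd3d, Cd3e and Cd8a were listed at 0. The 7 erythroid genes summed to at most 1728 TPM in positive and 14700 TPM in negative cells. Of these, Beta-s was in 1 positive and 7 negative cells (-3.85) and Hba-a1 in 3 and 2 (2.45), while Alas2 and Klf1 were listed at 0. In 4 of the 5 cells with Hba-a1 (15, 25, 2 and 8) it was high in 1 library of the pair and under 1 TPM in the other, and its difference was 1.52 with suffix 2 and 5.84 with suffix 3 libraries alone. Beta-s in cell 12 likewise came from 1 library of the pair. The part of these transcripts, and of the number of genes detected, in the differences above was not tested.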

How the data were processed

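Polyadenylated RNA of single sorted cells was amplified with the Discover-sc WTA Kit V2 and made into libraries with a TruePrep kit, per the labels' protocols. The deposited values are TPM, computed by the authors for 23420 rows and 63 libraries, each summing to 1e+06. The submitters' processing notes name bcl2fastq 2.16.0.10, StringTie 1.3.4, HISAT2 2.1.0, SAMtools 0.1.19 and mm10, without saying how each was used. TPM keeps no depth, so no count test was used. In 27 rows the symbol had become a date or was repeated; these were left out.

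Averages, differences and Clopper-Pearson 95% intervals were computed in Python 3.11.15 with NumPy 2.4.6, pandas 2.3.3 and SciPy 1.17.1, and figures in matplotlib 3.10.9. Paired libraries were averaged as TPM, and group means taken of log2(TPM + 1), which understates changes of low genes. Differences of at least 2 stand in for a call. The code was tested on simulated data. GENCODE M21 (GRCm38, which is mm10) gave gene coordinates and RefSeq the promoters. Cells were sorted singly and no cell was removed as a doublet, but whether any doublet remained was not tested.

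Named genes were Il23r, Il22, Ltb, the measured ILC3, LTi and IL-23 receptor signalling genes, 2 members of every further list, by size of difference, and 15 genes each way with the largest differences overall. The latter had to be at 10 TPM or more in 50% or more of the cells of the higher group and keep their sign in each library suffix, without the suffix 1 cells and with each cell left out; predicted, RIKEN and pseudogene symbols were left out. Values of 2 list members are not reported here but count in list totals. Other genes were named after their values were seen. The members and the 25 lists were chosen with earlier results of these data known. Alternatives covered suffixes, thresholds, pseudocounts, filters, scaling and single cells.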

Additional observations from a re-analysis of the deposited data

Results flagged for a closer look

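For 83 values, the highest or lowest of the 6 Il23r-positive cells was compared with the others. These were the number of genes detected and the genes named by rule. Il23r and the genes named after their values were seen were left out of this comparison. In 32 of them the gap to the nearest cell exceeded 0.625 of the whole range, the 95% critical value of Dixon's test for 6 values. Of the 32, 20 were high and 12 were low. Chance alone passes that critical value in about 1 of 20 groups only where values are normally distributed. Single-cell values that are high, or low, in 1 of the 6 cells alone pass it readily, and the genes are not independent. The 32 are therefore values to look at, and their number cannot be set against chance. The values below are TPM where no other unit is named.

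Cell 14-1 was high for 3238 genes detected, Stat3 at 183.5, Cxcr5 at 688.0, Cpa3 at 9.49, Ccdc53 at 242.1, Chchd7 at 101.4 and Hsd17b10 at 66.2. Cell 17-1 was high for Nrp1 at 106.7, Tubb5 at 208.7 and Samsn1 at 23.4, and low for Cxcr6 at 190.2, Hsd11b1 at 1.70 and Gapdh, which was listed at 0. Cell 10 was high for Ahr at 172.3 and Mapkapk3 at 132.2. Cell 15 was high for Icos at 19.8, Fcer1g at 7223, Beta-s at 36.3 and Ndufa8 at 1189, and low for Sugt1 and Aup1, both at 0. Cell 6 was high for Gmfg at 373.2 and low for Atp1b3 at 2.21, Wwp2 at 0.0678 and Pbxip1 at 0. Cell 25, the cell at the Il23r threshold, was high for Il22 at 3.55, S100a8 at 863.4 and Lck at 172.1, and low for Tmem176a at 11.4, Tmem176b at 140.4, Golga7 at 0 and Snrnp27 at 0.

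Cell 12-1, which entered no comparison, held 65136 TPM of Cpa3, a mast cell protease gene, against at most 9.49 TPM in the 18 cells.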

How the results depend on the processing

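No paired analysis was possible because no result here rests on a test, and library numbers pair libraries of 1 cell rather than cells of the groups. Each group is cells of 1 sample, TPM keeps no depth, and 6 positive cells, 2 of them of suffix 1, carry every difference.

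The number of genes higher by at least 2, 713 as reported, was 262 with a pseudocount of 10, 414 with a filter of 6 cells, 377 after quantile normalization and 453 after centring each gene's difference on the median of all genes. The number lower by at least 2, 233 as reported, was 386 without the suffix 1 cells, 370 and 375 with suffix 2 or suffix 3 libraries alone, 405 and 63 with pseudocounts of 0.1 and 10, 354 after quantile normalization, 366 with averaged cells only and 392 after centring. The higher share of all calls was 75.4% as reported, 59.2% without the suffix 1 cells, 53.6% after centring and 51.6% after quantile normalization. With 6 positive and 12 negative cells, calls upward are easier to reach, so this share does not count genes raised against genes lowered on equal terms. Leaving out each cell in turn gave 567 to 838 higher and 227 to 323 lower genes, the 567 and the 323 both without cell 14-1.

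The count of genes above in every positive cell was 1 without the suffix 1 cells, with suffix 2 libraries alone and with averaged cells only (Glo1), 1 with Il23r at 1 TPM or more (Nipsnap3b), 1 at 100 TPM or more (Golga7), and 0 to 2 with each cell left out, the 2 being Pbxip1 and Rara without cell 6. The count below in every positive cell was 1 without the suffix 1 cells and with averaged cells only (Eif3l), 1 with Il23r at 100 TPM or more (Gipc1), and 0 to 1 with each cell left out. The ILC3 and LTi median, 0.57, was -0.82 without the suffix 1 cells, -1.02 and -0.74 with suffix 2 or suffix 3 libraries alone and -0.96 with averaged cells only. Fewer of its genes were tested in these settings. The causes of the other changes were not tested. Centring and averaged cells only were chosen after seeing the data.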
